A study of Mus musculus with 39 samples.

Results

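The comparison sets the lungs of 5 mice fed permethrin at 5000 ppm for 14 days against the lungs of 5 mice fed isoniazid at 2500 ppm for 14 days. These 10 arrays are those whose sample titles give that compound, dose and duration, out of 39 arrays in all. All animals were females of the outbred strain Crlj:CD1(ICR), one lung sample and one array per animal, and the 14-day animals were 12 weeks old. Neither compared group is untreated: the undosed reference is a group of 5 controls (0 ppm, 14 days, 12 weeks old) that ate the same powdered diet, and it is used below to show on which side of undosed lung each treated group lay. The same comparison at 7 days used other mice, 5 per compound, aged 11 weeks.

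Permethrin is a pyrethroid insecticide that holds voltage-gated sodium channels of nerve cells open. Isoniazid is a hydrazide drug against tuberculosis, and the labels give it as the positive control for tumour induction. Many foreign compounds are cleared by enzymes that make them more soluble. Carboxylesterases split ester bonds, which pyrethroids carry. Epoxide hydrolases, glutathione S-transferases and quinone reductases act on reactive compounds of other kinds. In mice many of these enzymes are switched on together by the transcription factor NRF2, which its partner KEAP1 holds back until electrophiles modify it, and some by the nuclear receptors CAR and PXR. Cytochrome P450 1A1, the product of Cyp1a1, is the classical target of another sensor, the aryl hydrocarbon receptor. Whole lung was measured, so fewer cells of a type and less RNA per cell cannot be told apart.

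Each value is a probe set's MAS5 signal, the brightness of an Affymetrix probe set on a linear scale, taken to log2 and quantile normalized, and a difference of 1 in log2 is a doubling. The number of arrays per group limits the precision. The deposited array medians ran from 17.4 to 26.2, and correlations among the 10 arrays from 0.862 to 0.926, with no array identical to another. The labelled tissue was borne out by its defining genes: Sftpc of alveolar type 2 cells averaged 12.86 with permethrin and 12.83 with isoniazid, and Scgb1a1 of club cells stood at or next to the ceiling of the scale, 13.18, in all 10 animals. RNA quality varied within both groups. The log2 ratio of the 3' to the 5' Gapdh control probe set, which rises as RNA degrades, was 0.67 ± 0.70 (SD, n = 5) with permethrin and 0.71 ± 0.76 (SD, n = 5) with isoniazid (exact two-sided permutation test, p = 0.937, adjusted p = 0.937; the smallest p that 5 against 5 can give is 0.00794). Isoniazid replicate 5 had the highest ratio of the 10 arrays, 1.87, and it was also the highest of the isoniazid animals in 12 of the 16 genes that were higher with permethrin.

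Lungs of permethrin-fed mice carried more transcript of some enzymes that hydrolyse, conjugate or reduce foreign compounds than lungs of isoniazid-fed mice, and far less Cyp1a1, although most measured members of those enzyme families did not pass. Of 13020 genes tested, 20 differed at an adjusted p under 0.05 in limma (0.154%): 16 were higher with permethrin (0.123%) and 4 were lower (0.0307%). At an unadjusted p under 0.05 there were 904 genes (6.94%). Among the 16 were the carboxylesterases Ces1g and Ces1f, the epoxide hydrolase Ephx1, the glutathione enzymes Gsta2, Gstm1 and Gpx2, the thioredoxin enzymes Txnrd1 and Srxn1, and the reductases Nqo1 and Cbr3. The groups shared no range of values in 14 of the 20 genes. Over all genes tested, permethrin lay wholly above isoniazid in 0.361% and wholly below in 0.269%. Each gene kept its sign in all other ways of processing the data in which it was tested, 22 for most genes and 21 for Iffo1. Without isoniazid replicate 5, 25 genes passed, among them 18 of the 20. Without the 7 arrays of the series with a Gapdh ratio above 0.7 the count was 20, among them 16 of the 20. All 7 are 14-day arrays. They include permethrin 5000 ppm replicates 4 and 5 and isoniazid replicates 3 and 5, so this fit compared smaller groups, and calls lost in it may reflect fewer animals. With arrays centred on their medians in place of quantile normalization 12 passed, among them 11 of the 20. The 9 lost were Txnrd1, Srxn1, Cbr3, Aox1, Gstm1, Ikbkg, Iffo1, Hey1 and Hsd17b7, with adjusted p from 0.0941 to 0.925. The count itself rested on the spread estimated from all 39 arrays: with the 10 compared arrays alone 4 genes passed (Ces1g, Ces1f, Ephx1 and Cyp1a1), and with the 14-day arrays alone 5 passed, these and Gsta2.

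**Figure D1:**
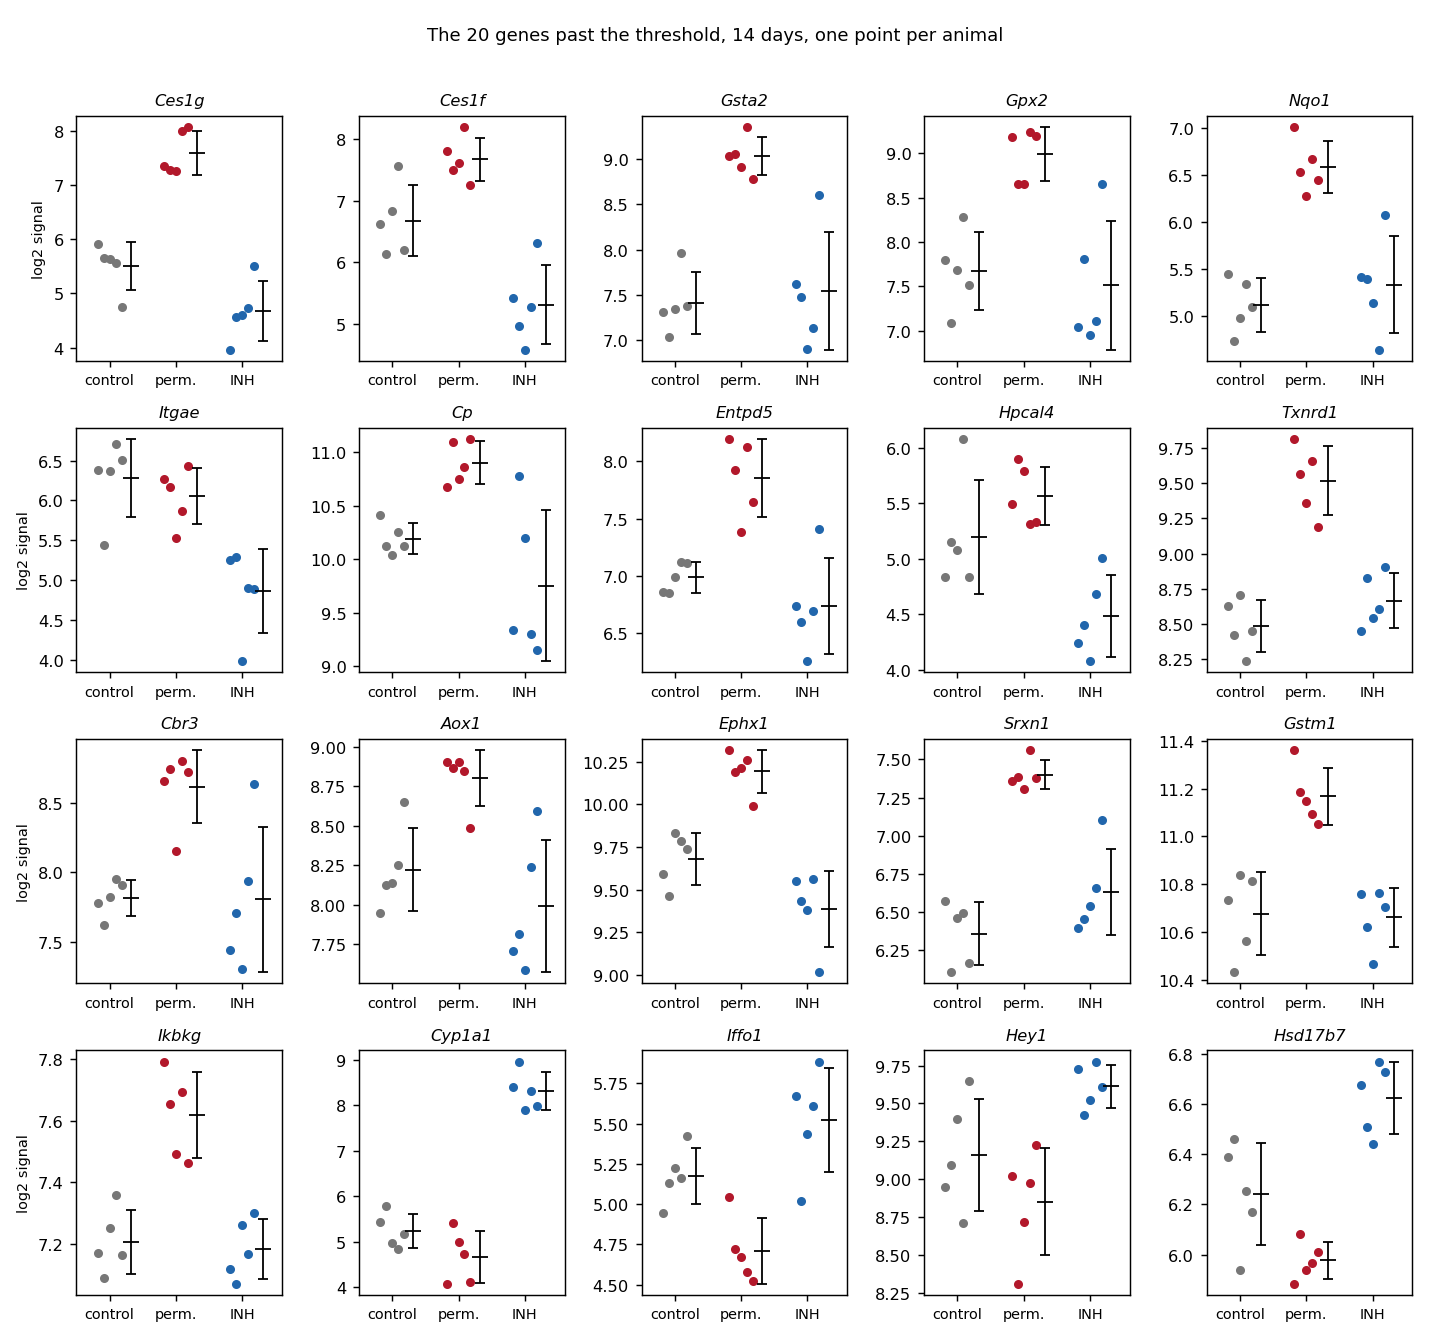
Log2 normalized signal of each of the 20 genes past the threshold in the 14-day controls (grey), the animals fed permethrin at 5000 ppm (perm., red) and those fed isoniazid at 2500 ppm (INH, blue). Each point is 1 animal, the black bar is the group mean with its SD (n = 5), and each panel has its own vertical scale that does not start at 0. Cyp1a1 is high in the isoniazid animals alone, from 7.89 to 8.96, and Ces1g is high in the permethrin animals alone, from 7.26 to 8.06.

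The stretch of 250 bases before a listed transcription start is shown for 4 of these genes, as context for members that moved together and for Cyp1a1, which moved against them. Sequences are from RefSeq on GRCm38.p6, read on the strand of transcription, and 16 of the 20 genes had an entry. The Cyp1a1 and Txnrd1 windows shown lie within the span of the gene. The Gsta2 window lies partly within its gene, and so does its match. Capitals mark a match to the core of the antioxidant response element bound by NRF2 (TGACNNNGC) or of the xenobiotic response element bound by the aryl hydrocarbon receptor (TNGCGTG), searched on both strands. The matches shown do not overlap each other.
Ces1g, chr8:93337210-93337459, minus strand, no match: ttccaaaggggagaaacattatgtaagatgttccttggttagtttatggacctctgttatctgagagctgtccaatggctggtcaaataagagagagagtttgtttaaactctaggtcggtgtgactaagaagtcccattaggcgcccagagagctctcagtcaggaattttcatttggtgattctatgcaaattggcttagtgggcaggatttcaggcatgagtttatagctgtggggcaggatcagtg
Gsta2, chr9:78347146-78347395, minus strand, xenobiotic core 9 to 3 bases before the start: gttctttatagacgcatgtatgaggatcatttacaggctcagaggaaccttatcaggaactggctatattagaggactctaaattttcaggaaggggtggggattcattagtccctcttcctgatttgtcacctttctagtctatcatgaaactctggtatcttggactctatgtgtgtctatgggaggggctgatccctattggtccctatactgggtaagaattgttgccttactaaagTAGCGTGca
Txnrd1, chr10:82858956-82859205, plus strand, the second of 3 starts listed, antioxidant core on the opposite strand 92 to 84 bases before the start: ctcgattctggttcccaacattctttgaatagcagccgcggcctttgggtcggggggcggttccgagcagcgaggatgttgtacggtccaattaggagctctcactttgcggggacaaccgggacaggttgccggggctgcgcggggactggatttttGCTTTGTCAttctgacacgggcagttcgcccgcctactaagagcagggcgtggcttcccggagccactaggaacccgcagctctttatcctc
Cyp1a1, chr9:57697363-57697612, plus strand, no match: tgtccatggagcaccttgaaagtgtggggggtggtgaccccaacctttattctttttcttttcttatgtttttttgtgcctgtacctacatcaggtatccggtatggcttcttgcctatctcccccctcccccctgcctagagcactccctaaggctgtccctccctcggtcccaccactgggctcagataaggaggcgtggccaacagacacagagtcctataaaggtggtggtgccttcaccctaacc
Of the 14 genes higher with permethrin that had an entry, 2 held the antioxidant core in this window, Txnrd1 and Ikbkg, and 1 held the xenobiotic core, Gsta2. Both entries of genes lower with permethrin, Cyp1a1 and Hsd17b7, held neither. Among all 10484 tested genes with an entry the antioxidant core was present in 13.9% and the xenobiotic core in 7.67%, and among all 32851 windows in 10.2% and 4.1%. These are matches of letters in a short window and say nothing of binding.

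Among the genes past the threshold, the carboxylesterases Ces1g and Ces1f gave the largest differences in favour of permethrin. Of 13 tested carboxylesterases and epoxide hydrolases 3 were higher and none was lower, and its median difference was 0.23, against -0.01 over all genes tested. Ces1g, a carboxylesterase of the endoplasmic reticulum, read 7.36, 7.28, 7.26, 7.99 and 8.06 in the permethrin animals and 3.96, 4.56, 4.60, 4.74 and 5.51 in the isoniazid animals. The lowest permethrin animal was thus well above the highest isoniazid animal, and the difference was 2.92 ± 0.28 (SE), 7.56-fold (adjusted p = 3.32e-08). The controls lay between, from 4.74 to 5.92. Permethrin animals were above them by 2.09 (adjusted p = 3.3e-05), and isoniazid animals differed from them by -0.83 (adjusted p = 0.636).

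Ces1f, a neighbour of Ces1g in the same gene cluster, read 7.80, 7.50, 7.61, 8.19 and 7.25 with permethrin and 5.42, 4.97, 4.59, 5.28 and 6.32 with isoniazid. No values were shared, and the difference was 2.35 ± 0.24 (SE), 5.11-fold (adjusted p = 4.81e-08). Here the gap came from both sides of the controls. Isoniazid animals fell below them by 1.36 (adjusted p = 0.00938), while the permethrin difference from controls, 1.0, did not pass (adjusted p = 0.113). The Ces1f probe set is of a type that can match several transcripts, and the Ces1 genes are close copies of each other, so its signal may include relatives. The relatives Ces1e, 0.63 ± 0.17 (SE, adjusted p = 0.195), and Ces1d, 0.23 ± 0.26 (SE, adjusted p = 0.937), did not pass.

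Ephx1, the microsomal epoxide hydrolase, read 10.32, 10.19, 10.22, 10.26 and 9.99 with permethrin and 9.55, 9.43, 9.38, 9.56 and 9.01 with isoniazid. The groups were apart by a narrow but complete margin, with a difference of 0.81 ± 0.11 (SE), 1.75-fold (adjusted p = 2.3e-05). Against the controls the permethrin animals were higher by 0.51 (adjusted p = 0.0286). The soluble epoxide hydrolase Ephx2, 0.10 ± 0.34 (SE), and the paraoxonases Pon1, Pon2 and Pon3, from -0.15 to 0.09, did not pass.

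Of 26 tested genes abundant in liver, some of which the lung also makes, none passed, and 21 differences were positive, with a median of 0.66. The differences ran from -0.42 to 3.02, and 3.02 was also the highest positive difference over all genes tested. The mean log2 signal of the 26 genes per animal ran from 5.00 to 6.21 with permethrin and from 4.41 to 5.22 with isoniazid. In the controls it ran from 5.09 to 6.0. Alb, the serum albumin gene that defines hepatocytes, averaged 7.69 with permethrin and 5.73 with isoniazid, a difference of 1.95 ± 0.67 (SE, adjusted p = 0.505), and no defining marker was at 0. With the liver and cardiac signal of each animal as covariates, the difference was 2.82 for Ces1g, 2.36 for Ces1f and 0.87 for Ephx1, with adjusted p = 3.75e-07, 3.75e-07 and 2.13e-05. Beyond this fit, the part of liver-abundant genes in these differences was not tested.

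Glutathione enzymes were higher with permethrin in a few members only. Of 20 tested glutathione S-transferases 2 were higher and none lower, with a median difference of 0.20, and of 17 tested genes of glutathione synthesis and peroxidases 1 was higher, with a median of 0.15. Gsta2, an alpha-class transferase that couples glutathione to electrophiles, read 9.04, 9.05, 8.91, 9.35 and 8.78 with permethrin and 7.62, 7.47, 6.91, 7.14 and 8.60 with isoniazid. Isoniazid replicate 5, at 8.60, came close to the permethrin animals without reaching them. The difference was 1.48 ± 0.21 (SE), 2.79-fold (adjusted p = 9.52e-05), and permethrin animals were 3.07-fold above controls (adjusted p = 3.3e-05) while isoniazid animals differed from controls by 0.14 (adjusted p = 0.978).

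Gstm1, a mu-class transferase with high signal in lung, read 11.36, 11.19, 11.15, 11.09 and 11.05 against 10.76, 10.62, 10.47, 10.76 and 10.70. The ranges were separate and the difference small, 0.51 ± 0.09 (SE), 1.42-fold (adjusted p = 0.00624), and the gene's other 3 probe sets differed by 0.56 to 0.62. The call depended on the normalization: it was lost with the deposited scaling (adjusted p = 0.0516) and with median centring (adjusted p = 0.925). Transferases with larger or similar differences that did not pass were Gstt1, 0.89 ± 0.28 (SE, adjusted p = 0.369), and Gsta3, 0.62 ± 0.22 (SE, adjusted p = 0.547).

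Gpx2, a glutathione peroxidase of epithelia, read 9.19, 8.66, 8.65, 9.25 and 9.20 with permethrin. Isoniazid animals read 7.04, 7.81, 6.95, 7.11 and 8.66, so that replicate 5 alone fell inside the permethrin range. The difference was 1.48 ± 0.23 (SE), 2.78-fold (adjusted p = 0.000495), and 1.76 without that animal. Gsta2 differed by 1.74 without it. Gclc, the catalytic subunit of the rate-limiting enzyme of glutathione synthesis, did not pass: its values were 9.78, 9.75, 9.50, 10.88 and 10.78 against 8.62, 9.53, 9.91, 8.98 and 8.39, which overlap (1.05 ± 0.26 SE, adjusted p = 0.101). It passed without permethrin replicate 3 (adjusted p = 0.0382), without isoniazid replicate 3 (adjusted p = 0.0212), with the deposited scaling (adjusted p = 0.0434) and with median centring (adjusted p = 0.0036). Glutathione synthetase, Gss, differed by 0.56 ± 0.16 (SE, adjusted p = 0.252), and Gclm, the modifier subunit partner of Gclc, by 0.33 ± 0.16 (SE, adjusted p = 0.717).

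The thioredoxin system was represented by 2 of 10 tested members, both higher, while the median of that list was -0.02. Txnrd1, the cytosolic thioredoxin reductase that recycles thioredoxin with NADPH, read 9.82, 9.56, 9.36, 9.66 and 9.19 with permethrin and 8.45, 8.83, 8.54, 8.61 and 8.90 with isoniazid. Every permethrin animal lay above every isoniazid animal (0.85 ± 0.14 SE, 1.80-fold, adjusted p = 0.000654). The isoniazid animals differed from controls by 0.18 (adjusted p = 0.934) and the permethrin animals by 1.03 (adjusted p = 3.3e-05).

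Srxn1, sulfiredoxin, which repairs over-oxidized peroxiredoxins, was tightly grouped with permethrin at 7.36, 7.38, 7.31, 7.56 and 7.38. Isoniazid animals read 6.40, 6.46, 6.54, 6.66 and 7.10, all of them lower. The difference was 0.77 ± 0.14 (SE), 1.70-fold (adjusted p = 0.00514). Among the other probe sets of Srxn1, 2 differed by 0.80 and 0.89. Another, with a mean log2 signal of 3.73 and still bright enough to test, differed by -0.84. The mitochondrial reductase Txnrd2, -0.02 ± 0.25 (SE), and Txn1 itself, 0.09 ± 0.06 (SE), did not pass.

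Reductases of quinones and carbonyls gave 2 higher genes of 20 tested, with a median difference of 0.13. Nqo1, which reduces quinones with both electrons at once, read 7.01, 6.54, 6.28, 6.67 and 6.45 with permethrin and 5.42, 5.40, 5.14, 4.64 and 6.08 with isoniazid. The groups did not meet, though isoniazid replicate 5 was again nearest (1.25 ± 0.23 SE, 2.39-fold, adjusted p = 0.00514). Controls ran from 4.73 to 5.45, so that permethrin animals were 2.77-fold above them (adjusted p = 0.000561). Nqo1 is also counted among targets of the aryl hydrocarbon receptor, and within that list of 8 tested genes it was the 1 higher member while Cyp1a1 was the 1 lower.

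Cbr3, a carbonyl reductase, read 8.66, 8.75, 8.16, 8.81 and 8.73 with permethrin and 7.44, 7.71, 7.30, 7.94 and 8.64 with isoniazid, and the ranges overlapped (0.81 ± 0.17 SE, adjusted p = 0.0219). This call was lost when any of 7 animals was left out in turn (permethrin replicates 1, 2, 4 and 5, isoniazid replicates 1, 2 and 3), with adjusted p-values from 0.000122 to 0.127 over the 10 fits. Its relative Cbr1 had separate ranges, 8.36 to 8.68 against 7.72 to 8.18, but did not pass (0.48 ± 0.11 SE, adjusted p = 0.0579). Aldh3a1, an aldehyde dehydrogenase, read 8.74, 8.86, 8.07, 8.70 and 8.21 against 7.47, 7.79, 7.69, 6.37 and 7.29. It too was separate without passing (1.20 ± 0.29 SE, adjusted p = 0.085), passed with the cardiac and liver covariates (1.32, adjusted p = 0.0349), and its permethrin animals were above controls (1.78, adjusted p = 0.000709). None of 17 tested aldehyde dehydrogenases passed between the compounds.

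Transcripts of NRF2 and of the regulators named here did not pass, and NRF2 activity was not measured. Nfe2l2, which encodes NRF2, differed by -0.03 ± 0.08 (SE), Keap1 by -0.03 ± 0.14 (SE) and Bach1, a repressor at the same elements, by 0.09 ± 0.08 (SE). Of the 16 tested genes in the list of regulators and other targets of NRF2 only Ephx1 passed. Hmox1, the inducible haem oxygenase, did not (0.40 ± 0.16 SE, adjusted p = 0.605). That list does not hold Gsta2, Gstm1, Gpx2, Txnrd1, Srxn1, Nqo1 or Cbr3, which passed and are counted in the enzyme lists above. It is thus not a count of all NRF2 targets. Among 9 tested genes that supply NADPH none passed, Pgd of the pentose phosphate pathway being nearest (0.62 ± 0.15 SE, adjusted p = 0.0897). The list of CAR and PXR targets held 4 higher genes of 17 tested, with a median of 0.35. These 4 were Ces1g, Ephx1, Gsta2 and Gstm1, which other lists hold too. Cyp2b10, a usual CAR marker that the club cell list also holds, differed by -0.16 ± 0.09 (SE, adjusted p = 0.785). It read 10.85 to 11.27 in all 10 animals and averaged 11.00 in the 14-day controls, so its signal was high without treatment. The part of CAR was not tested.

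Cyp1a1 gave the largest difference of the comparison among the 20 genes, and it was higher with isoniazid. Permethrin animals read 4.08, 5.42, 5.00, 4.74 and 4.11, and isoniazid animals 8.41, 8.96, 7.89, 8.33 and 8.0. The isoniazid animals stood together far above every other animal, by 3.65 ± 0.37 (SE), 12.5-fold (adjusted p = 4.81e-08). The controls, from 4.85 to 5.79, were close to the permethrin animals: isoniazid exceeded controls 8.41-fold (adjusted p = 9.05e-06), whereas permethrin differed from them by -0.57 (adjusted p = 0.977). The other genes of the aryl hydrocarbon receptor pathway did not pass, apart from Nqo1 above. Cyp1b1 differed by -0.18 ± 0.17 (SE), Tiparp, a feedback inhibitor of the receptor, by -0.19 ± 0.12 (SE), and Ahr, the receptor itself, by -0.01 ± 0.15 (SE), and none of these passed.

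Alas1 encodes the enzyme that sets the pace of haem synthesis. Its values were 10.51, 10.12, 10.68, 10.51 and 10.13 with permethrin and 10.47, 11.20, 10.94, 10.89 and 10.99 with isoniazid, overlapping through isoniazid replicate 1. The difference of -0.51 ± 0.13 (SE) did not pass (adjusted p = 0.162), but it did when that animal was left out (-0.61, adjusted p = 0.039), and isoniazid animals were above controls by 0.67 (adjusted p = 0.0351). No other of the 13 tested genes of haem synthesis passed. The metallothionein Mt1 differed by -0.24 ± 0.20 (SE, adjusted p = 0.897), and none of 13 tested genes of its list passed.

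Hsd17b7, an enzyme of cholesterol and oestradiol synthesis, was lower with permethrin. It read 5.88, 6.08, 5.94, 5.97 and 6.01 against 6.68, 6.51, 6.44, 6.77 and 6.73, 2 tight groups without overlap (-0.65 ± 0.13 SE, 1.57-fold lower, adjusted p = 0.0172). Controls ran between and across them, from 5.94 to 6.46. Of the other 3 probe sets for the gene, 2 differed by -0.56 and -0.28 and 1 by 0.08. The call was lost without permethrin replicate 1, isoniazid replicate 1 or isoniazid replicate 4, with adjusted p up to 0.0731. It was also lost with median centring (adjusted p = 0.174), with array weights (adjusted p = 0.0688), with the cardiac and liver covariates (adjusted p = 0.0877) and without the 7 arrays with a Gapdh ratio above 0.7 (adjusted p = 0.193). Hsd17b7 was the 1 member past the threshold of 20 tested genes of cholesterol synthesis, of which 19 were negative, with a median of -0.28. The next were Idi1, isopentenyl diphosphate isomerase, -0.58 ± 0.16 (SE, adjusted p = 0.26), and Fdft1, squalene synthase, -0.42 ± 0.13 (SE, adjusted p = 0.398). The mean log2 signal of the 20 genes was 7.01 ± 0.14 (SD, n = 5) with permethrin, 7.29 ± 0.12 (SD, n = 5) with isoniazid and 7.15 ± 0.19 (SD, n = 5) in controls.

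Hey1, a repressor downstream of Notch, read 9.02, 8.31, 8.72, 8.97 and 9.23 with permethrin and 9.73, 9.43, 9.52, 9.78 and 9.61 with isoniazid (-0.76 ± 0.16 SE, adjusted p = 0.0219). The isoniazid animals were all above, and controls, from 8.71 to 9.65, spanned both. Iffo1, a nuclear intermediate filament protein, read 5.05, 4.72, 4.67, 4.58 and 4.53 against 5.67, 5.02, 5.43, 5.61 and 5.88, with a slight overlap (-0.81 ± 0.17 SE, adjusted p = 0.0218). The Hey1 call was lost without permethrin replicate 2 or 3 or isoniazid replicate 1 or 4 (adjusted p up to 0.125). The Iffo1 call was lost without permethrin replicate 2, 4 or 5 or isoniazid replicate 1, 4 or 5 (adjusted p up to 0.0945), and in 13 of the 21 other ways of processing in all. Among these were array weights (adjusted p = 0.149), the cardiac and liver covariates (adjusted p = 0.0629) and leaving out the 7 arrays with a Gapdh ratio above 0.7 (-0.62, adjusted p = 0.712). Blood vessel cells, where Hey1 is expressed, gave no member past the threshold among 20 tested endothelial markers, with a median of -0.05.

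Itgae, the integrin subunit known as CD103 that marks T cells and dendritic cells within epithelium, read 6.26, 6.17, 5.53, 5.87 and 6.43 with permethrin. Isoniazid animals read 5.26, 5.29, 3.99, 4.91 and 4.89, all lower (1.19 ± 0.25 SE, 2.28-fold, adjusted p = 0.0218). The controls, 5.44 to 6.71, were with the permethrin animals, and the isoniazid group fell below them by 1.42 (adjusted p = 0.00938). Markers of T and NK cells had a median difference of 0.32, with 16 of 19 positive and none past the threshold; their mean log2 signal ran from 6.03 to 6.83 with permethrin and from 5.79 to 6.34 with isoniazid. Their part in the Itgae difference was not tested. Without permethrin replicate 1, 2 or 5 or isoniazid replicate 3 or 4 Itgae no longer passed (adjusted p up to 0.115), nor did it with array weights (adjusted p = 0.182) or without the 7 arrays with a Gapdh ratio above 0.7 (0.84, adjusted p = 0.555).

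Cp, ceruloplasmin, a copper oxidase of plasma that airway cells also make, read 10.67, 11.09, 10.75, 10.86 and 11.12 with permethrin. Isoniazid animals split, with replicates 2 and 3 at 10.78 and 10.20 and the others at 9.34, 9.31 and 9.15 (1.15 ± 0.25 SE, 2.21-fold, adjusted p = 0.031). All 8 probe sets of the gene were positive, from 0.46 to 1.83. Club cell markers, a list that holds Cp, had a median of 0.11 and a mean log2 signal of 9.59 to 10.09 with permethrin and 8.30 to 10.15 with isoniazid, and their part in the Cp difference was not tested. Cp no longer passed once the 7 arrays with a Gapdh ratio above 0.7 were left out (1.03, adjusted p = 0.625), nor did it without permethrin replicate 1, 2, 4 or 5 or isoniazid replicate 1, 4 or 5 (adjusted p up to 0.16), with array weights (adjusted p = 0.0688) or with no mean-variance trend (adjusted p = 0.053).

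Aox1, an aldehyde oxidase that oxidizes aldehydes and nitrogen heterocycles, read 8.91, 8.87, 8.90, 8.85 and 8.49 against 7.71, 7.82, 7.59, 8.24 and 8.59. Only permethrin replicate 5 and isoniazid replicate 5 brought the ranges together (0.81 ± 0.18 SE, adjusted p = 0.031). This call was lost without permethrin replicate 1, 2, 3 or 4 or isoniazid replicate 1, 2 or 3 (adjusted p up to 0.144) and with replicate number as a block (0.0681). Entpd5, a nucleotidase of the endoplasmic reticulum, read 8.20, 7.92, 7.38, 8.13 and 7.65 against 6.73, 6.60, 6.26, 6.69 and 7.41. Isoniazid replicate 5 overlapped the lowest permethrin animal (1.12 ± 0.19 SE, 2.17-fold, adjusted p = 0.00231), and the gene's other 5 probe sets were positive as well, from 0.50 to 0.92. Its call held in all 10 fits that left out 1 animal.

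Hpcal4, a neuronal calcium sensor protein, read 5.50, 5.89, 5.78, 5.31 and 5.33 against 4.24, 4.40, 4.08, 4.68 and 5.01, without overlap (1.08 ± 0.22 SE, 2.12-fold, adjusted p = 0.0172). Its call was lost without permethrin replicate 2, isoniazid replicate 1 or isoniazid replicate 3 (adjusted p up to 0.0876). The 1 gene past the threshold outside the naming rule, given here after its values were seen, was Ikbkg, the regulatory subunit of the kinase that activates NF-kappaB, with 7.79, 7.65, 7.49, 7.69 and 7.46 against 7.12, 7.07, 7.26, 7.17 and 7.30. All permethrin animals were higher by a small step (0.43 ± 0.09 SE, 1.35-fold, adjusted p = 0.031), in 6 of 6 probe sets. In RefSeq its locus overlaps that of G6pdx, which supplies NADPH and is not analysed here, and its call was lost without permethrin replicate 1, 2 or 4 or isoniazid replicate 1, 2 or 4 (adjusted p up to 0.125) and with the cardiac and liver covariates (adjusted p = 0.0515).

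Set against the 14-day controls, the 20 genes fell into different patterns. In 15 of the 20 the control mean lay between the means of the treated groups, 11 of the 16 higher genes and all 4 lower ones. Permethrin was the farther of the compounds from the controls in 13 of the 16 higher genes. Of these 16, 9 also passed for permethrin against controls, a comparison in which 17 of 13020 genes did (0.131%): Ces1g, Ephx1, Gsta2, Gpx2, Txnrd1, Srxn1, Nqo1, Gstm1 and Cbr3. For isoniazid against controls 4 genes passed (0.0307%), and 3 of them were among the 20: Cyp1a1 above controls, and Ces1f and Itgae below. The fourth was Alas1. Both treated groups are set against the same 5 controls, so these values are not independent of each other. The 20 genes were also chosen by the gap between these same treated groups, which favours a control mean between them. These counts are therefore given as a description.

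**Figure D2:**
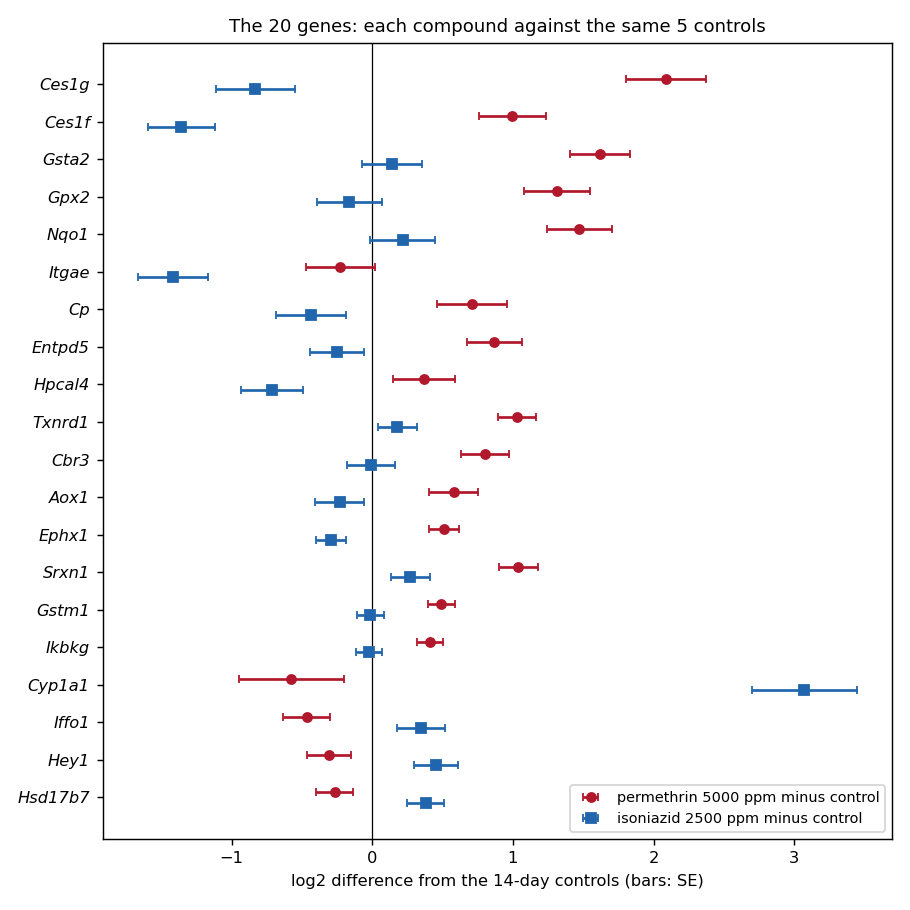
Log2 difference from the 14-day controls, with its SE, for permethrin at 5000 ppm (red circles) and isoniazid at 2500 ppm (blue squares) in the 20 genes, ordered by the difference between the compounds. Gsta2, Gpx2, Nqo1, Txnrd1, Srxn1, Cbr3 and Gstm1 have blue squares at most 0.27 from the controls, whereas Ces1f and Itgae lie below them with isoniazid and Cyp1a1 lies 3.07 above.

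The same comparison in the 7-day mice, none of which entered the 14-day groups, pointed the same way in all 20 genes. At 7 days 11 genes passed (0.0845%), 9 higher (0.0691%) and 2 lower (0.0154%) with permethrin, beside 643 genes at an unadjusted p under 0.05 (4.94%). Of the 11, 10 were among the 20, or 10 of 20 and 10 of 11. The 10 were Ces1g, Ces1f, Ephx1, Gsta2, Gpx2, Txnrd1, Srxn1, Nqo1, Aox1 and Cyp1a1, and the other was Alas1. Permethrin animals lay wholly above isoniazid animals in 15 of the 16 higher genes, Cp being the exception, whereas this held for 0.668% of all genes. Of the 4 lower genes, Cyp1a1 alone lay wholly below at 7 days, against 0.799% of all genes. The 7-day count was 7 without permethrin replicate 2, permethrin replicate 3, isoniazid replicate 1 or isoniazid replicate 2, each left out alone.

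Ces1g at 7 days read 7.65, 7.62, 7.08, 7.94 and 7.48 with permethrin and 5.15, 5.34, 5.21, 4.72 and 5.01 with isoniazid (2.47 ± 0.28 SE, adjusted p = 1.33e-06). Gsta2 read 9.06, 9.15, 9.19, 8.80 and 9.25 against 7.69, 7.70, 7.48, 6.88 and 7.74 (1.59 ± 0.21 SE, adjusted p = 3.21e-05), and Nqo1 read 6.46, 6.65, 6.53, 6.30 and 6.54 against 5.39, 4.85, 4.63, 5.20 and 4.99 (1.48 ± 0.23 SE, adjusted p = 0.000605). All 3 were apart by more than 0.9 in log2, with no isoniazid animal near the permethrin range. Cyp1a1 read 4.68, 4.66, 4.42, 5.91 and 4.17 against 8.65, 8.23, 7.55, 8.67 and 7.68 (-3.39 ± 0.37 SE, adjusted p = 7.92e-07). Alas1 was separate at this time, 9.73 to 10.33 against 10.61 to 11.16 (-0.76 ± 0.13 SE, adjusted p = 0.00277).

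Whether the gap between the compounds changed from 7 to 14 days was tested as an interaction in limma, and 0 of 13020 genes passed, with 351 at an unadjusted p under 0.05 (2.7%). Among the 20 genes 4 were at an unadjusted p under 0.05, each with a wider gap at 14 days. Ces1f moved by 0.85 and Itgae by 0.76 towards permethrin, and Hsd17b7 by -0.46 and Iffo1 by -0.62 towards isoniazid, none past the adjusted threshold. Gsta2, Nqo1, Txnrd1, Srxn1 and Aox1 changed by -0.23 to 0.06. Since the 20 were chosen by their gap at 14 days, these changes are given as a description.

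**Figure D3:**
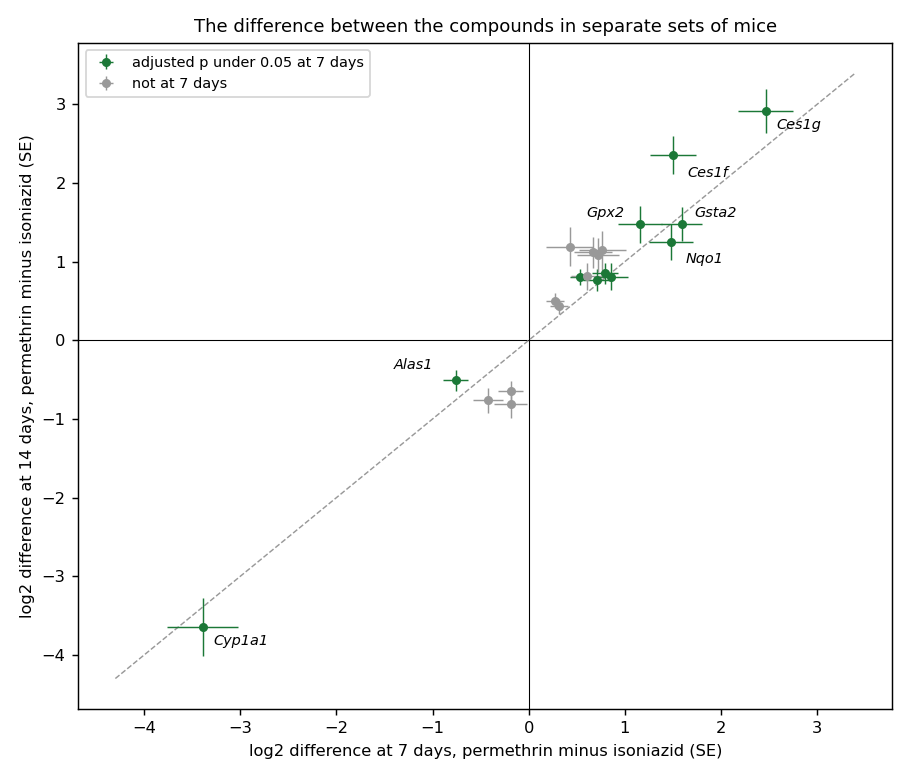
Log2 difference of permethrin at 5000 ppm minus isoniazid at 2500 ppm at 7 days (horizontal) and 14 days (vertical) for the 20 genes and Alas1, with SE bars; green points also passed the threshold at 7 days, and the dashed line marks equal differences. All points lie in the quadrants of equal sign, and Ces1f lies 0.85 above the line.

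Most of the 52 gene lists examined, 40 of them, held no gene past the threshold. Cell cycle, p53 targets, interferon response and P450 enzymes of lung were among these. The list of P450 enzymes leaves out Cyp1a1, which passed and is counted in the aryl hydrocarbon receptor list. The proliferation genes Mki67, -0.20 ± 0.26 (SE), and Top2a, -0.26 ± 0.22 (SE), did not pass, and the 35 tested cell cycle genes had a median of -0.16. Club cell Cyp2f2, 0.04 ± 0.05 (SE), and Selenbp1, a selenium-binding protein, -0.09 ± 0.08 (SE), did not pass. Of 14 listed voltage-gated sodium channel genes, the family permethrin acts on in nerve, 5 were bright enough to test, and none of these passed (median -0.03).

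Genes of MHC class II, which present antigen, were positive in all 9 tested members at both durations, with medians of 0.50 at 14 days and 0.52 at 7 days, yet none passed. H2-Ab1 differed by 0.54 ± 0.24 (SE, adjusted p = 0.667) and Ciita, their master regulator, by 0.50 ± 0.23 (SE, adjusted p = 0.683). The mean log2 signal of the 9 genes was 7.89 ± 0.64 (SD, n = 5) with permethrin, 7.36 ± 0.15 (SD, n = 5) with isoniazid and 7.93 ± 0.51 (SD, n = 5) in controls. Isoniazid animals, from 7.18 to 7.53, overlapped the permethrin range of 7.45 to 9.02 at its low end. The highest permethrin animal, at 9.02, stood well above the mean of its group. Markers of B and plasma cells, which carry MHC class II, had a median of 0.46 with 12 of 13 positive, none past the threshold, and their part in these values was not tested.

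Heat shock genes were positive in all 12 tested members, from 0.16 to 0.69, with a median of 0.35 at 14 days and 0.07 at 7 days, and none passed. Their mean per animal overlapped broadly, 9.99 to 11.10 with permethrin and 9.57 to 10.89 with isoniazid. Core clock genes differed in opposite directions without passing, with Dbp at -1.66 ± 0.68 (SE), Nr1d1 at -1.34 ± 0.63 (SE), Arntl at 0.69 ± 0.27 (SE) and Npas2 at 0.99 ± 0.37 (SE), and the labels give no hour of sampling. Macrophage markers had a median of -0.21, and the cathepsin Ctsk, -0.91 ± 0.30 (SE), the keratin Krt79, -0.74 ± 0.26 (SE), and the chitinase-like Chil3, -0.56 ± 0.22 (SE), had separate ranges, lower with permethrin, but did not pass. Cardiac muscle genes, a sign of heart tissue taken with the lung, had a median of -0.08 and mean log2 signals of 7.30 ± 0.40 (SD, n = 5) with permethrin and 7.41 ± 0.65 (SD, n = 5) with isoniazid, against 6.40 ± 0.66 (SD, n = 5) in the controls.

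**Figure D4:**
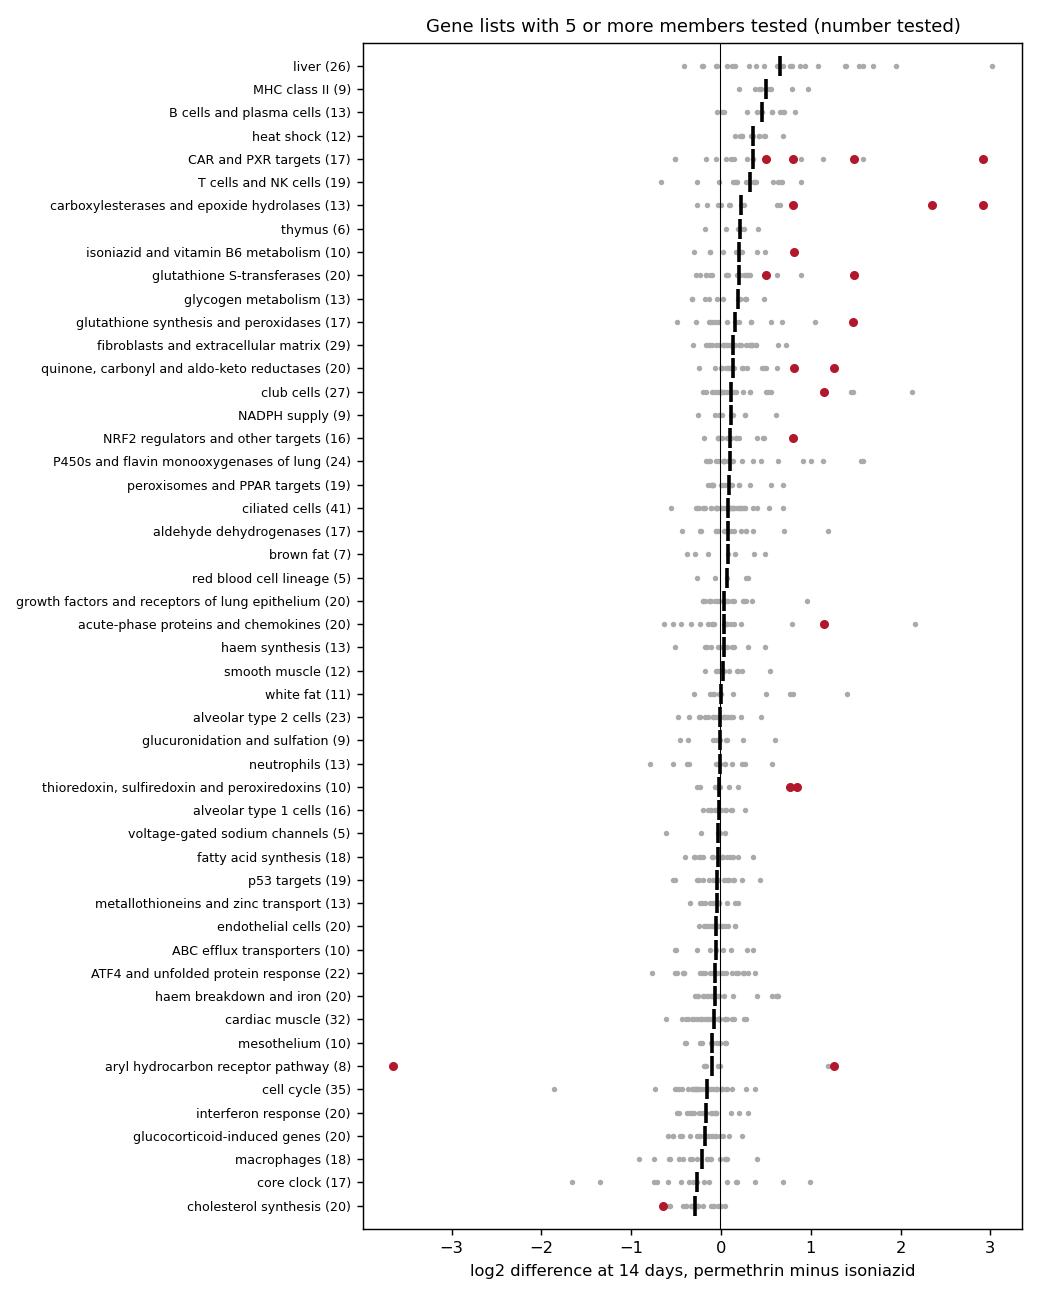
Log2 difference of permethrin at 5000 ppm minus isoniazid at 2500 ppm at 14 days for every tested member of the lists with 5 or more members tested. Grey points did not pass the threshold, red points did, black ticks mark list medians, and the thin vertical line is the median of all genes tested. The red points lie mostly in the enzyme lists at the right, with Cyp1a1 alone at the far left at -3.65.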

How the data were processed

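Lungs of 39 mice were measured, 1 Affymetrix array per animal. The authors deposited 1 signal intensity per probe set, on a linear scale. Per the submitters' processing notes it comes from MAS5, of unstated version, and each array's trimmed mean is 100.0. Of 45101 probe sets, 34945 carry 1 gene symbol, 932 several and 9160 none, and 64 are controls. Array medians differed by 1.51 times, above a limit of 1.5, so log2 values were quantile normalized without a pseudocount, which takes out shifts common to most genes and puts the brightest probe sets at a ceiling. The brightest probe set on average stands for a gene, and genes in the upper 60% of probe sets by that mean (log2 of 3.43, a signal of 10.8) were tested, 13020 of 18193. Sample titles gave the groups and replicate numbers.

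With limma 3.58.1 in R 4.3.3 (with the data.table package, version 1.17.8), 8 group means were fitted to all 39 arrays, and the spread was moderated by eBayes with a trend on mean signal. P-values are two-sided and adjusted by Benjamini-Hochberg over all genes of a comparison, with 0.05 as threshold. The step was tested on simulated data. Animals are separate samples per the labels, which do not say how they were housed. The members, the lists and the design, with its normalization rule, filter and model, were chosen with earlier results of these data known. Named are the 15 largest differences in each direction among genes past the threshold, up to 4 such members of each list, and genes always given whether they passed or not: Gsta2, Nqo1, Aldh3a1, Ces1g, Srxn1, Txnrd1, Gpx2, Gclc, Cyp1a1, Alas1, Mt1, Selenbp1, Cyp2b10, Cyp2f2, Scgb1a1, Sftpc, Mki67 and Top2a. Other genes are named from the lists after their values were seen. Alternatives were the deposited scaling, median centring, a pseudocount of 4, no filter or the upper 40%, every probe set, fewer groups in the model, a replicate block, array weights, no trend, leaving out the 7 arrays with a Gapdh log2 ratio above 0.7, cardiac and liver signal as covariates, and leaving out each animal. Same-numbered animals of the 2 groups deviated with correlations from -0.21 to 0.15, so the numbers do not pair them.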

Additional observations from a re-analysis of the deposited data

Results flagged for a closer look

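Of 64 sets of 5 animals checked (each gene of the naming rule or past the threshold, and the Gapdh ratio, in each compared group), 4 had 1 animal far from the other 4; chance alone gives about 1 in 20. Cbr3 in permethrin replicate 3 was 8.16, below the other 4 permethrin animals at 8.66 to 8.81. Aox1 in permethrin replicate 5 was 8.49, against 8.85 for the nearest animal and 8.91 for the highest. Scgb1a1 in isoniazid replicate 2 was 13.13 while the other 4 stood at the ceiling of the scale, 13.18. Top2a in isoniazid replicate 2 was 6.30, above 5.78 to 5.89 in the others. None of the 4 was tested further.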

How the results depend on the processing

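All 20 genes kept their direction under the 22 alternatives (21 for Iffo1), and Ces1g, Ces1f, Ephx1 and Cyp1a1 also stayed past the threshold under each; 11 of the 20 did so in every fit that left out 1 animal. The 14-day count of 20 was 12 with median centring, 4 with the compared groups alone and 5 with arrays of the same duration, and 14 to 26 with 1 animal left out. The 7-day count of 11 was 6 with median centring, 17 with the compared groups alone and 37 with array weights. It was 19 without the 7 arrays of high Gapdh ratio, and 7 to 13 with 1 animal left out. None of those 7 arrays is a 7-day array, so leaving them out removed no animal of the 7-day comparison. The change from 7 to 14 days gave 0 genes in every fit, also with each of 20 animals left out. With replicate number as a block, which the numbers do not warrant as pairing, 19 genes passed at 14 days, 17 of them among the 20. Aox1, Iffo1 and Ikbkg were lost. In the same fit 12 genes passed at 7 days and 0 for the change. Among same-numbered pairs, only isoniazid and permethrin replicates 1 correlated above 0.1. Values near 0 changed sign: Scgb1a1 was -0.0028 with the deposited scaling and -0.0015 with median centring, and Sftpc ran from -0.0026 (without isoniazid replicate 1) to 0.048 with 1 animal left out. The causes were not tested. Dim genes and genes at the ceiling limit what can be seen, and 5 animals per group leave small differences undetected.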

Other observations

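Some genes lay just outside the threshold. Esm1, a proteoglycan secreted by sprouting blood vessels, read 6.86, 5.72, 7.50, 6.81 and 7.23 with permethrin and 8.30, 7.85, 8.36, 8.38 and 7.52 with isoniazid, a narrow separation (-1.26 ± 0.29 SE, adjusted p = 0.0653 in limma), and differed by -0.55 at 7 days. Slamf8, a surface protein of myeloid cells, read 4.39, 5.67, 3.62, 4.10 and 4.56 against 3.12, 3.39, 3.02, 3.41 and 1.01, the last of these far below the others (1.68 ± 0.40 SE, adjusted p = 0.0819 in limma). All 5 isoniazid values lay below the log2 of 3.43 used as the filter on mean signal. At 7 days Slamf8 differed by 0.42. Fabp5, a fatty acid binding protein of alveolar epithelium, differed by -0.48 at 14 days and -0.44 at 7 days, with overlapping ranges (adjusted p = 0.085 in limma at 14 days). These genes were chosen by their rank after their values were seen, and none passed.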
